A study of Mus musculus with 2 samples.

Results

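Promoters of long noncoding RNAs (lncRNAs) were examined in the open chromatin of mouse regulatory T cells. A peak was included when its summit lay within 1 kb of a transcription start site (TSS) of a GENCODE M21 gene of type lincRNA, antisense, processed_transcript or bidirectional_promoter_lncRNA, and more than 1 kb from every TSS of a protein-coding gene. This rule took 815 of the 34610 peaks, or 2.35%. A noncoding TSS lay within 1 kb of 2008 peaks, or 5.8% of all peaks, but 1193 of these also had a coding TSS within 1 kb and were counted as coding promoters. The other peaks used for comparison were 12275 coding promoters, with a summit within 1 kb of a coding TSS, and 20919 distal peaks beyond 1 kb of any annotated TSS.

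Chromatin was profiled by ATAC-seq, in which the Tn5 transposase inserts sequencing adapters into accessible DNA. The cells were primary regulatory T cells of 1 adult male mouse aged 4 months from the cross Foxp3CreERT2 x Rosa26YFP, which carries a tamoxifen-inducible Cre recombinase driven from Foxp3 and a YFP reporter at Rosa26. The labels give bone marrow haematopoietic cells as their origin and name no treatment, second condition or other cell type. The 2 libraries are technical replicates of that 1 biological replicate and were pooled before peaks were called, so every value below describes 1 sample. There was no spread between animals to set a difference against, and no test was made. Intervals are 95% intervals over peaks or genes and cover counting error only, and the depth behind each peak is unknown. Of 10 genes of T and regulatory T cells, 9 had a summit within 1 kb of a TSS, and Foxp3 was the exception. Of 13 genes of other cells, 1 had one, Cd8b1.

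Most lncRNAs are transcribed by RNA polymerase II from nucleosome-depleted promoters that resemble those of coding genes, although many start at sites with the sequence character of enhancers. Some serve as hosts from which small nucleolar RNAs (snoRNAs) or microRNAs (miRNAs) are cut, some act in the nucleus on neighbouring genes, and for most no function is known. In T cells, miR-155, cut from the Mir155hg transcript, is needed for the fitness of regulatory T cells, and the lncRNA Flicr tunes Foxp3 itself. Open chromatin at a promoter shows access for the transposase and is not a measure of transcription.

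The windows below are the 200 bases centred on the summit, read from GRCm38 (the assembly also called mm10) on the strand of the noncoding gene, 5′ to 3′, with motif matches in capitals. The first 3 are shown because they are near copies of each other on chromosome 17 and are among the 12 peaks of highest signal. They are BC002059 at chr17:16951354-16951553 (+ strand), Gm5165 at chr17:17234669-17234868 (+ strand) and Gm6712 at chr17:17294231-17294430 (+ strand). The capitals mark a match to the ETS family site CCGGAAG on either strand.
BC002059: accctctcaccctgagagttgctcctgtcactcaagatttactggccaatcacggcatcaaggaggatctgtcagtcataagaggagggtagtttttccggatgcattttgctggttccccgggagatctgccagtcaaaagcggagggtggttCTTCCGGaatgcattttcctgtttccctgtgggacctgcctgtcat
Gm5165: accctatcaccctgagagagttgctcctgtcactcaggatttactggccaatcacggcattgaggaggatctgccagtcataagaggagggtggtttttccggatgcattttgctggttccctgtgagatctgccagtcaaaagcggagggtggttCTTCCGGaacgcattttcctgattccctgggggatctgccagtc
Gm6712: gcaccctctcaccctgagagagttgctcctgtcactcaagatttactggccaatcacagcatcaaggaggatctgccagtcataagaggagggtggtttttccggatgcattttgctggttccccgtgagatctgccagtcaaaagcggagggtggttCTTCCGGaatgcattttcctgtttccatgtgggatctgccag

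The next pair are promoters of snoRNA host genes, a listed group with mostly strong peaks. Of its 12 genes 9 were open, beside 9.15% of all lncRNA genes away from coding TSSs. Snhg6 lies at chr1:9944072-9944271 (- strand), and the capitals mark both ETS matches and a KLF/SP match (GGGGCGG). Snhg15 lies at chr11:6528710-6528909 (- strand), and the capitals mark a cyclic AMP response element (TGACGTCA).
Snhg6: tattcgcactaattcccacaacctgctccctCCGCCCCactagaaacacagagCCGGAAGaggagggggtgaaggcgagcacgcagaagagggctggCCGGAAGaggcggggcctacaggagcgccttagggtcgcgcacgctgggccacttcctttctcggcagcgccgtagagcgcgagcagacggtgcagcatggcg
Snhg15: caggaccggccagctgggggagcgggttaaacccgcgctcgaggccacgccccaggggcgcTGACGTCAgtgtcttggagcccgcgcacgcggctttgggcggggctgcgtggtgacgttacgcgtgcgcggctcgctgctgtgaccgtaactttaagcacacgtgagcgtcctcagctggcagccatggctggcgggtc

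Mir155hg had a peak at its 5′ end and another at an internal TSS, with CpG observed over expected ratios of 1.15 and 0.270. The 5′ window lies at chr16:84703214-84703413 (+ strand), with an AP-1 match (TGANTCA) and a TATA box match (TATAAA) in capitals. The whole window lies downstream of the annotated TSS nearest to the summit, so this TATA match does too. The internal window lies at chr16:84713187-84713386 (+ strand), with a RUNX match (TGTGGTT) in capitals.
Mir155hg, 5′ end: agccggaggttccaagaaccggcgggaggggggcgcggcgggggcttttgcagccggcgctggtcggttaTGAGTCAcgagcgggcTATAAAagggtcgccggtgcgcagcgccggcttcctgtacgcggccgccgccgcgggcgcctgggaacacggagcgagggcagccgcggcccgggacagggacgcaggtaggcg
Mir155hg, internal: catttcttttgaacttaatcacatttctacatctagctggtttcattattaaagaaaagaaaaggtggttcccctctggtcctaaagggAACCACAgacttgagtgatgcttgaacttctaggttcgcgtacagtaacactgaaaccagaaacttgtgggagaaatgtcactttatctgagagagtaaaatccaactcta

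AW112010 is shown because both of its peaks hold the same combination of a TATA box and a TCF/LEF match (CTTTGAA or CTTTGAT). The windows lie at chr19:11055727-11055926 (- strand) and chr19:11050356-11050555 (- strand), and the long run of capitals holds a TATA match on both strands. Bach2os, at chr4:32572188-32572387 (- strand), is shown for the CTCF match inside the Bach2 gene.
AW112010, upstream: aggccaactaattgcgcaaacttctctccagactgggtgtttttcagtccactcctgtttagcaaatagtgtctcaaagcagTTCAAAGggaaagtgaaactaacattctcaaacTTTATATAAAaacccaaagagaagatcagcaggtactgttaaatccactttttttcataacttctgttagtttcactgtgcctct
AW112010, downstream: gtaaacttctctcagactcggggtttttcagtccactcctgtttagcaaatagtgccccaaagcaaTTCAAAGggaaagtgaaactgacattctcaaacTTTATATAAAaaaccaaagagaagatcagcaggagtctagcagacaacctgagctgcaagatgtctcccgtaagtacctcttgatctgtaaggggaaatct
Bach2os: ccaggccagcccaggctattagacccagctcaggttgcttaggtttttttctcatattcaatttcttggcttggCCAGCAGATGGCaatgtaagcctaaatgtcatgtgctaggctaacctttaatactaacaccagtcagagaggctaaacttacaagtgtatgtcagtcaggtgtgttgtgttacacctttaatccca

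The miRNAs below are cut from hosts with an open promoter in these cells, and the seed (bases 2 to 8) is in capitals. The mature sequences are from RefSeq on GRCm38.p6. miR-17-5p and miR-20a-5p, both from Mir17hg, share the seed AAAGUGC, and miR-15a-5p and miR-16-5p, both from Dleu2, share the seed AGCAGCA.
mmu-miR-155-5p: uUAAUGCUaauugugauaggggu
mmu-miR-142a-3p: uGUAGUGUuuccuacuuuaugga
mmu-miR-17-5p: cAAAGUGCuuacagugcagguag
mmu-miR-20a-5p: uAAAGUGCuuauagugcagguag
mmu-miR-15a-5p: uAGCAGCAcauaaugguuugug
mmu-miR-16-5p: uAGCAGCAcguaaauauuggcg

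By gene type, 491 of the 815 peaks had a lincRNA as the nearest noncoding gene, 187 an antisense gene, 135 a processed transcript and 2 a bidirectional promoter lncRNA. They belonged to 741 genes, of which 673 had 1 peak, 62 had 2 and 6 had 3. Summits gathered just upstream of the annotated start. Their median distance from the TSS was 203 bp (interquartile range 62.5 to 509.5), and 523 of them (64.2%) lay upstream of the TSS or at it. Within 100 bp of the TSS lay 299 summits, while 207 lay more than 500 bp away. In 714 peaks (87.6%) the summit was within 1 kb of the 5′ end of the gene model, and the rest lay at internal start sites. The nearest coding TSS was a median of 20.6 kb away (interquartile range 7.06 to 52.0 kb), and the farthest was 735 kb.

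**Figure D1:**
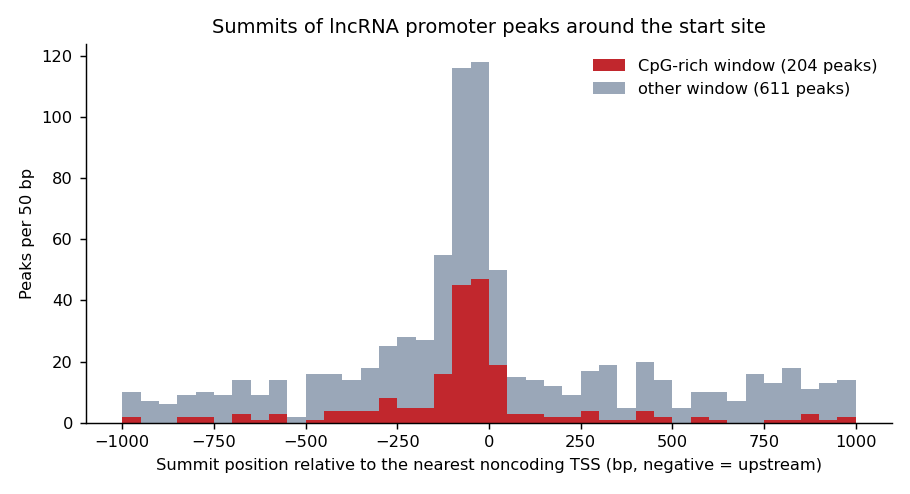
Number of lncRNA promoter peaks per 50 bp (vertical axis) by the position of the summit relative to the nearest noncoding TSS in bp (horizontal axis, upstream negative). Red is the 204 peaks with a CpG-rich summit window and grey the other 611, stacked. The CpG-rich peaks sit close to the start site, at a median distance of 82 bp, and the others reach out over the whole range, at a median of 260 bp.

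A lncRNA gene had an open promoter less often than a coding gene. Of 8064 noncoding genes with a TSS more than 1 kb from every coding TSS, 738 had a summit at such a TSS, or 9.15% (8.53 to 9.80%). Coding genes had a summit within 1 kb of a TSS in 51.9% of 21938 cases, and all annotated genes in 25.9%. The 1729 noncoding genes whose every TSS lay within 1 kb of a coding TSS had one in 57.2%, but those windows take in the coding promoter as well. Among the genes away from coding promoters, processed transcripts were open in 20.7% (17.4 to 24.4%), antisense genes in 8.41% (7.23 to 9.71%) and lincRNAs in 8.32% (7.60 to 9.08%). None of 17 bidirectional promoter lncRNAs was open, which allows a share of up to 19.5%. The 2 peaks nearest to genes of that type stood at TSSs within 1 kb of a coding TSS, which were not assessed here.

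CpG content divided the noncoding genes as it did the coding genes, at a lower level. A 200 bp window was called CpG-rich when its GC content was at least 50% and its observed over expected CpG ratio at least 0.6. With a CpG-rich 5′ end, 192 of 616 noncoding genes were open (31.2%, 27.5 to 35.0%), against 7.33% (6.75 to 7.95%) of the 7448 others. The same shares in coding genes were 79.6% and 26.4%. Processed transcripts with a CpG-rich 5′ end reached 37.5% (28.8 to 46.8%), lincRNAs 34.6% (29.2 to 40.3%) and antisense genes 23.5% (17.6 to 30.3%). At equal CpG class, too, the intervals of noncoding and coding genes lay apart. The number of TSSs per gene was not held equal in this comparison. Noncoding genes counted as open only by summits away from coding TSSs, while any summit within 1 kb of a TSS counted for coding genes. The CpG class is that of the 5′ end, which need not be the TSS that was assessed in a noncoding gene. Both rules can lower the noncoding shares, and their part in the gap was not tested.

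Genes with more annotated start sites, and so more windows in which a summit counts, were open more often. Open promoters were found at 29.8% of 309 noncoding genes with 4 or more TSSs, 13.2% of those with 2 or 3 and 7.04% of those with 1. The share also varied with the neighbouring coding gene. Where the nearest coding gene was open, 13.4% of noncoding genes were open (12.3 to 14.4%), against 4.81% (4.17 to 5.52%) where it was not. Noncoding genes whose 5′ end lay over 100 kb from any coding TSS were open in 3.93% of 2444 cases, and those at 5 to 20 kb in 13.4% of 1662. Seen from the peaks, the nearest coding gene was open for 606 of the 815 (74.4%), beside 79.98% of distal peaks and 86.8% of all peaks. The last share takes in the coding promoters, whose nearest coding gene is open by definition.

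**Figure D2:**
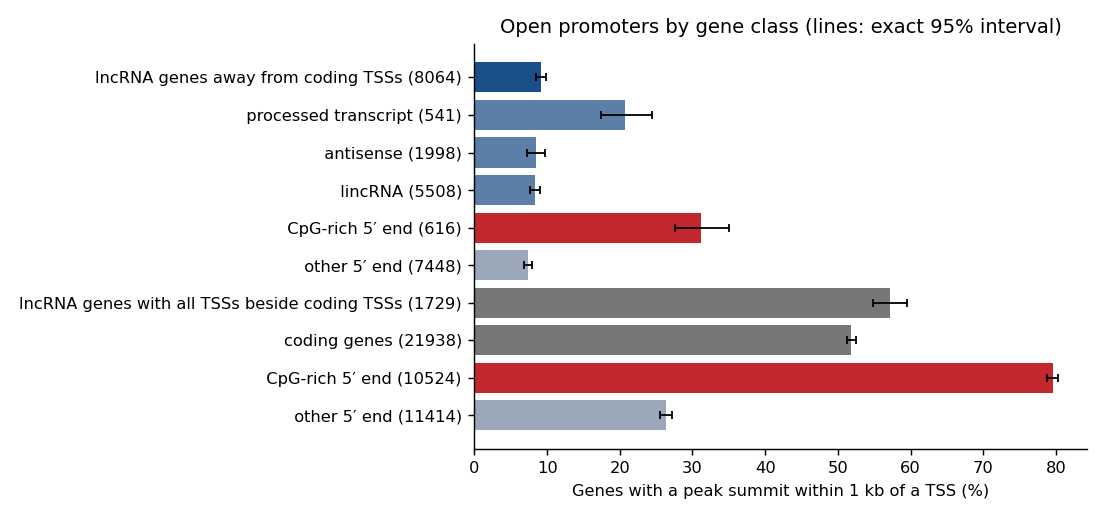
Share of genes (%, horizontal axis) with a peak summit within 1 kb of a TSS, for lncRNA genes away from coding TSSs by type and by CpG class of the 5′ end, and below them for lncRNA genes beside coding TSSs and for coding genes. Numbers of genes are in brackets and lines are exact 95% intervals. For lncRNA genes away from coding TSSs, only summits more than 1 kb from every coding TSS count. lncRNA genes reach 9.15% and coding genes 51.9%, and in both a CpG-rich 5′ end goes with the higher share.

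The peaks themselves were weaker and narrower than those of coding promoters and lay between these and distal peaks. The median signal, the authors' enrichment value at the strongest summit of a peak, was 12.8 at lncRNA promoters (12.3 to 13.3), against 15.7 at coding promoters, 12.1 at distal peaks and 13.2 over all peaks. The order of lncRNA and coding promoters in signal depends on taking 1 summit per peak: over every listed summit, the ratio of the medians was 1.10 in place of 0.813. The median −log10 p was 119 at lncRNA promoters, 253 at coding promoters, 83.9 at distal peaks and 115 over all peaks. The median width was 682 bp at lncRNA promoters, against 937, 562 and 668 bp in the same order. More than 1 summit was listed in 58.8% of lncRNA promoter peaks, beside 56.3% of all peaks. Of the lncRNA promoters, 71 (8.71%) were among the highest 10% of the whole list by signal and 380 (46.6%) above its median.

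A CpG-rich window was present at 204 lncRNA promoters, or 25.03% (22.1 to 28.2%), beside 28.5% of all peaks, 69.4% of coding promoters and 4.98% of distal peaks. The CpG-rich lncRNA promoters had a median signal of 14.9 (13.2 to 16.3), a −log10 p of 183 and a width of 880 bp. The other 611 had a median signal of 12.3 (11.7 to 12.8), a −log10 p of 104 and a width of 635 bp. Coding promoters outside the CpG-rich class had the same median signal as these, 12.3 (12.01 to 12.6). CpG-rich coding promoters stood at 16.9 (16.8 to 17.1).

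**Figure D3:**
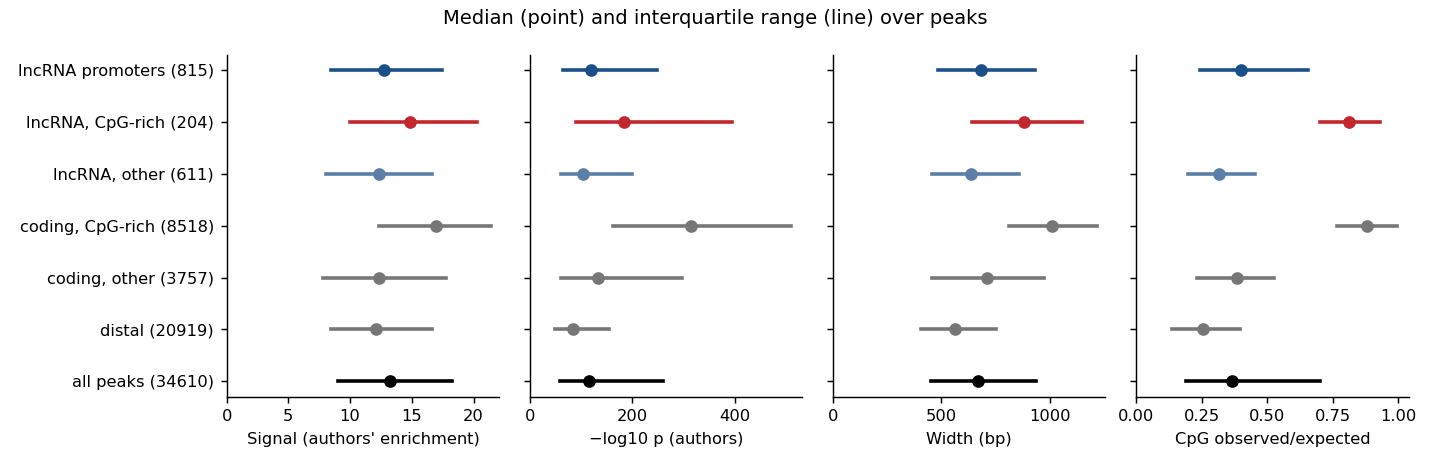
Median (point) and interquartile range (line) of the authors' signal, the authors' −log10 p, the peak width in bp and the CpG observed over expected ratio for lncRNA promoters, the CpG-rich and other lncRNA promoters, CpG-rich and other coding promoters, distal peaks and all peaks (numbers of peaks in brackets). lncRNA promoters outside the CpG-rich class have the same median signal, 12.3, as coding promoters outside it, and a lower −log10 p, at 104 against 132.

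Signal also varied with distance from the start site. The median signal was 14.3 for summits within 100 bp of the TSS, 12.8 from there to 250 bp, 12.4 from 250 to 500 bp and 10.7 beyond 500 bp. The higher signal of CpG-rich lncRNA promoters was found near the TSS. Within 100 bp the medians were 16.9 in the CpG-rich class and 13.1 outside it, against 12.3 and 12.4 from 250 to 500 bp and 9.11 and 10.9 beyond 500 bp. Coding promoters are more often CpG-rich and closer to their TSS, so both properties were held together. Within 100 bp of the TSS and CpG-rich, the 114 lncRNA promoters had a median signal of 16.9 (14.8 to 18.6) and the 6376 coding promoters 17.9 (17.6 to 18.1), and these intervals overlap. At the same distance but outside the CpG-rich class, the 185 lncRNA promoters had 13.1 (12.4 to 14.1), against 14.9 (14.3 to 15.6) for 1644 coding promoters. Beyond 500 bp and outside the CpG-rich class the order was the opposite, with 10.9 (9.82 to 11.98) at 183 lncRNA promoters against 9.002 (8.58 to 9.39) at 1020 coding promoters. In the other 5 strata of distance and CpG class, the intervals of lncRNA and coding promoters overlapped. In the CpG-rich stratum nearest to the TSS, the median −log10 p was 271 at lncRNA promoters and 324 at coding promoters. In the stratum beyond 500 bp and outside the CpG-rich class it was 84.4 at lncRNA promoters and 81.7 at coding promoters.

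The gene type went with small differences in signal. lincRNA promoters had a median of 13.3 (12.7 to 13.8), antisense promoters 11.5 (10.7 to 12.3) and processed transcripts 12.8 (11.6 to 14.0). Processed transcripts were CpG-rich in 38.5% of cases, lincRNAs in 23.6% and antisense genes in 19.3%. The summit lay inside the body of a coding gene in 183 peaks (22.5%), beside 52.8% of all peaks. With only the 5′ ends of gene models as start sites, for coding genes as well, the share was 35.9%. That setting no longer bars peaks at internal starts of coding genes. Antisense peaks were inside a coding gene in 69.5% of cases and lincRNA peaks in 6.31%. The type names refer to position against other genes, so these shares in part restate the annotation. Of the 183 peaks, 165 had the coding gene on the opposite strand to the lncRNA, 16 on the same strand and 2 on both. Antisense genes made up 126 of the 165. Peaks inside coding genes had a median signal of 11.5 (10.502 to 12.6) and those outside 13.1 (12.6 to 13.6). The summit base was in repeat-masked sequence in 62 peaks (7.61%), beside 8.02% of all peaks.

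Over all lncRNA promoters, each of the 13 searched motifs had an exact interval that included its share among all peaks. The KLF/SP site was in 15.1% of windows (15.6% of all peaks), the CTCF site in 9.33% (9.95%), the RUNX site in 8.47% (9.07%), the AP-1 site in 8.22% (9.6%) and the ETS site in 7.61% (8.55%). The TCF/LEF site was in 7.48% (7.76%), the TATA box in 7.24% (6.43%) and the NF-Y site (CCAATNAG) in 5.03% (5%). The NRF1 site was in 1.84% (3%), the cyclic AMP response element in 1.84% (1.81%), the YY1 site (AAGATGGC) in 1.60% (2.29%), the NF-kB site in 1.35% (1.7%) and the ZNF143 site in 0.859% (0.887%). Matches were counted on both strands, and a match is a run of letters and not evidence of binding.

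The overall shares joined classes of unlike content. KLF/SP sites were in 36.8% of CpG-rich windows against 7.86% of the others, ETS sites in 12.3% against 6.06%, and NRF1 sites in 5.39% against 0.655%. RUNX sites, which are bound by core factors of the T cell lineage, were in 3.43% of CpG-rich windows against 10.1% of the others, AP-1 sites in 1.96% against 10.3%, and TCF/LEF sites in 2.94% against 9.002%. The CTCF site did not follow CpG content, with 8.82% of CpG-rich windows and 9.49% of the others.

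Within the CpG-rich class, lncRNA promoters and coding promoters held some motifs at different shares. The CTCF site, bound by the factor that anchors chromatin loops, was in 18 of 204 CpG-rich lncRNA promoters (8.82%, 5.31 to 13.6%), against 2.79% (2.45 to 3.17%) of CpG-rich coding promoters. CpG-rich distal peaks had it in 11.3% (9.47 to 13.4%). The TATA box was in 5.88% of CpG-rich lncRNA promoters (3.08 to 10.05%), against 1.84% (1.57 to 2.15%) of CpG-rich coding promoters and 3.07% of CpG-rich distal peaks. ETS sites went the other way, with 12.3% of CpG-rich lncRNA promoters (8.09 to 17.6%), against 21.0% (20.2 to 21.9%) of CpG-rich coding promoters and 9.22% of CpG-rich distal peaks. NRF1 sites were in 5.39% (2.72 to 9.44%), 10.6% (9.97 to 11.3%) and 6.24% of the same 3 sets. In windows outside the CpG-rich class, KLF/SP sites were in 7.86% of lncRNA promoters (5.85 to 10.3%) against 14.7% (13.5 to 15.8%) of coding promoters. NF-Y sites were in 4.09% (2.67 to 5.98%) against 8.38% (7.52 to 9.32%) in the same comparison. RUNX, AP-1, CTCF, ETS and TCF/LEF sites had overlapping intervals there.

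**Figure D4:**
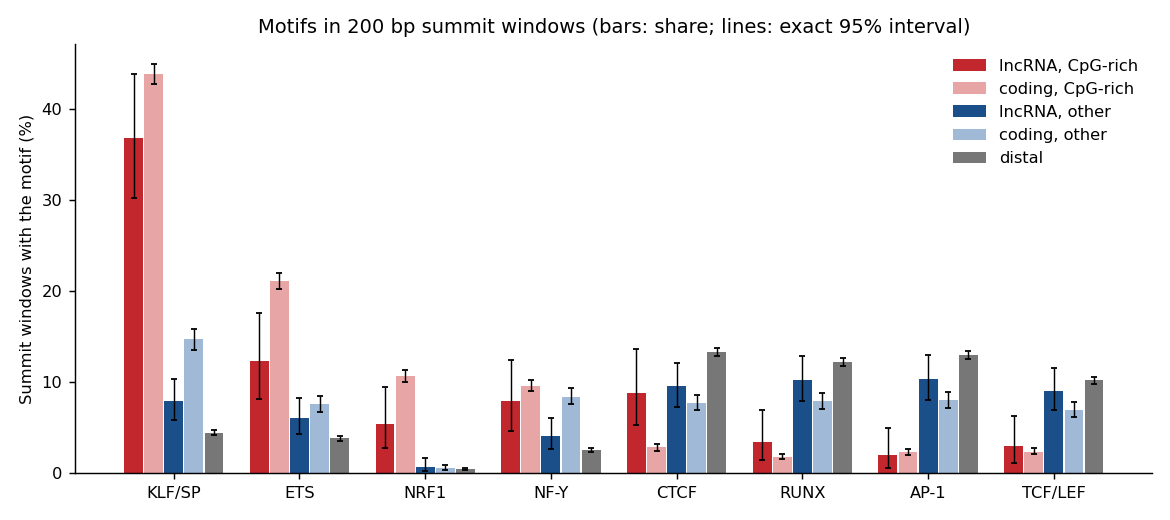
Share of 200 bp summit windows with a motif (%, vertical axis), with exact 95% intervals, for CpG-rich lncRNA promoters, CpG-rich coding promoters, other lncRNA promoters, other coding promoters and distal peaks. The CTCF share of CpG-rich lncRNA promoters, 8.82%, is above that of CpG-rich coding promoters, 2.79%, while their ETS share, 12.3%, is below 21.0%. Distance from the TSS is not held equal between the sets.

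Windows with some of the promoter motifs had higher signals. The 41 lncRNA promoters with an NF-Y site had a median of 19.99, against 12.7 without it, and the 62 with an ETS site had 17.01, against 12.6 without it. The 13 with a YY1 site had 8.60, against 12.8 without it. For CTCF the medians were 12.1 with the site and 12.8 without it, and for RUNX 13.6 and 12.7. Several of the NF-Y and ETS matches are in groups of sequence copies, described next, and matches within a group are not independent of each other.

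The 12 lncRNA promoters of highest signal ran from 27.4 to 42.5. Gm13274, an antisense gene on chromosome 4, led with 42.5, a −log10 p of 820 and a summit 129 bp upstream of its TSS. RefSeq places a curated mRNA start of Gm13286 within 1 kb of that summit, so its noncoding type rests on the annotation used. Next came BC002059 with 32.5, AA465934 with 32.2, Gm26670 with 31.2, Mir670hg with 30.7, Gm39469 with 30.4 and 4930553P18Rik with 29.4. Gm26510 had 29.1, Gm6712 had 28.8, 1700020I14Rik had 28.4, Gm15996 had 27.8 and Gm5165 had 27.4. In 11 of the 12 the summit was within 130 bp of the TSS, and 5 were CpG-rich. Gm15996 was the exception in distance, with its summit 821 bp upstream and inside the coding gene Apopt1. The ETS site was in 5 of the 12, and 4 of the 12 matched the window of another peak.

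Several of the strongest lncRNA promoters had sequence found at other peaks. These groups were picked once their values were known and are given as a description. A match was called where at least 75% of a 200 bp window aligned to that of another peak at 80% identity or more. Such a match was found for 38 lncRNA promoters (4.66%, 3.32 to 6.34%), beside 1.98% (1.83 to 2.13%) of all peaks and 1.91% (1.68 to 2.17%) of coding promoters. In counts, these were 684 of all peaks and 235 coding promoters, and distal peaks had 324 (1.55%). The remaining matches were among 601 peaks at TSSs of other gene types alone. Their share was larger than that of lncRNA promoters, so such matches were not particular to lncRNA promoters. Of the 38, 22 matched a coding promoter, and in 12 the coding gene was named Zfp, the symbol of zinc finger protein genes. The 38 had a median signal of 19.4, against 12.5 for the rest. Over all peaks, the medians were 15.4 with a match and 13.2 without one. Among the 20 lncRNA promoters of highest signal 7 had a match, against 7 of the 301 coding promoters and 47 of the 849 peaks of the whole list in the same top share. In the genome, 24 lncRNA promoter windows occurred more than once at 95% identity and coverage or more. How reads that map to several copies were placed is not given in the sources used here, and its part in these values was not tested.

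BC002059, Gm5165 and Gm6712, printed above, formed 1 such group on chromosome 17. Their windows were between 92.5% and 95.9% identical, each held the ETS match, and their signals were 32.5, 27.4 and 28.8. The same sequence stood at the promoter of the coding gene Zfp97, 92.4% identical to Gm6712 over 157 bp, where the signal was 28.0. A second group of 5, Gm39469, A430073D23Rik, Gm20939, Gm32856 and Gm31793, lay on 5 chromosomes with signals from 21.3 to 30.4. All 5 of its windows held an NF-Y match. Another group of 5, E430024I08Rik, Gm47467, Gm46430, Gm47469 and Gm1976, had signals from 17.01 to 26.7 and an ETS match in 4 windows, and 4 of its members resembled the promoter of Zfp825. RefSeq gives curated mRNAs for Gm5165, Gm6712, Gm20939, Gm32856 and Gm46430, so part of these groups is coding in that annotation. Over all 815 peaks, a curated RefSeq mRNA start lay within 1 kb of 24 (2.94%), among them Tctn2, Zswim6, Ptpmt1 and Ifi30, which these GENCODE models class as processed transcripts.

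The snoRNA host genes, whose introns release the guide RNAs of ribosomal RNA modification, were open in 9 of the 12 cases that could be assessed. The share over all lncRNA genes away from coding promoters was 9.15%. This gene list and those below were chosen with earlier results of these data known. The 10 peaks of the snoRNA hosts had a median signal of 19.5, beside 12.8 over all lncRNA promoters. Of these 10, 9 were CpG-rich. Snhg6 had a signal of 24.8 and a −log10 p of 705. Dancr, known for restraining differentiation of human progenitor cells, had 24.5 and 891. Snhg15 had 22.3, Snhg17 21.8, Epb41l4aos 20.6, Snhg12 18.3, Snhg20 18.2, Snhg5 18.1 and Snhg8 16.1. A second Snhg12 peak, 114 bp upstream of an internal TSS and outside the CpG-rich class, had 5.89. Gas5, Snhg1 and Snhg14 had none. For Gas5 and Snhg1 a summit lay within 1 kb of some TSS but also of a coding TSS. Such summits were not counted, and both genes are among the 12 as not open. In these genes the summits of the 5′ peaks lay between 86 bp upstream and 6 bp downstream of the TSS.

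Of 13 genes on the list of miRNA hosts, 7 were open, beside 9.15% of all lncRNA genes away from coding promoters. Of the 7, 5 hold a mature miRNA of the RefSeq table, while Mirt1 and Lncpint hold none. The 13 peaks of the list had signals from 4.05 to 30.7 with a median of 8.06, and 1 of them was at Mir22hg, which is not among the 13 genes because its TSSs lie within 1 kb of a coding TSS. Mir670hg was the highest at 30.7 (−log10 p 397), but that peak stood at an internal TSS downstream of both miRNAs inside the gene, miR-670 and miR-129-2, which a transcript from there would not hold. Near the 5′ end of Mir670hg, the longer pseudoreplicated list had a peak with a signal of 5.63. Mir155hg had 12.8 at the CpG-rich 5′ window and 15.1 at the internal window, with −log10 p of 394 and 364. Its summits were 146 and 263 bp downstream of their TSSs, and the 2 peaks were nearly equal in width, at 974 and 961 bp. Mir142hg, host of the blood cell miRNA miR-142a, had 8.06 with a −log10 p of 327, and a second peak 798 bp upstream had 4.05. Mir17hg, host of the proliferation-promoting miR-17 cluster, had 8.43, with its summit 624 bp upstream of the TSS. Dleu2, host of miR-15a and miR-16, had 13.2 at an internal start and 5.50 at its 5′ end, both CpG-rich. Mirt1 had 14.6. Lncpint, induced by p53, had 3 weak peaks with signals of 4.86, 4.78 and 4.59, of which 2 were CpG-rich. The Mir22hg peak had 5.57 and lay 1.08 kb from the Tlcd2 coding TSS, just inside the limit.

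Among genes listed as lncRNAs studied in many cell types, 8 of 16 were open, beside 9.15% of all lncRNA genes away from coding promoters. Malat1, an abundant RNA of nuclear speckles, had a peak at its TSS with a signal of 4.25 and a stronger one, 10.1, with its summit 959 bp upstream. Neat1, the scaffold of paraspeckles, had 5.52. The gene 2900097C17Rik, the mouse form of NORAD, which binds Pumilio proteins, had 19.4. Pvt1, the neighbour of Myc, had peaks at internal start sites with 13.6 and 6.63. Lockd, downstream of Cdkn1b, had 5.93, and Dubr had 12.5. Ptprv, which is named for a protein tyrosine phosphatase and counts here only by its GENCODE type of processed transcript, had 18.9 and 5.87. Tug1, Firre and Meg3 had none under the rule in the thresholded list, and the pseudoreplicated list had peaks at Firre with 8.55 and 5.63. For Tug1 a summit lay within 1 kb of some TSS but also of a coding TSS. That summit was not counted, and Tug1 is among the 16 as not open.

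Genes of X inactivation and imprinting were open in 4 of 12 cases, beside 9.15% of all lncRNA genes away from coding promoters. Their 5 peaks had a median signal of 19.6. Jpx, an activator of Xist, had 24.4, and Ftx, another gene of the X inactivation centre, had 19.6 and 15.03, both at internal start sites. Xist and Tsix had no peak at their promoters in the thresholded list. The pseudoreplicated list had one at Tsix with a signal of 5.42. Kcnq1ot1, the antisense RNA that silences its imprinted domain on chromosome 7, had 22.1 inside Kcnq1, and Airn, which silences Igf2r in cis, had 15.1 at a summit 7 bp downstream of its TSS inside Igf2r. Which parental allele was open cannot be read from these files. H19, Meg3 and Nespas had none in the thresholded list, and the pseudoreplicated list had one at Nespas with 6.47.

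**Figure D5:**
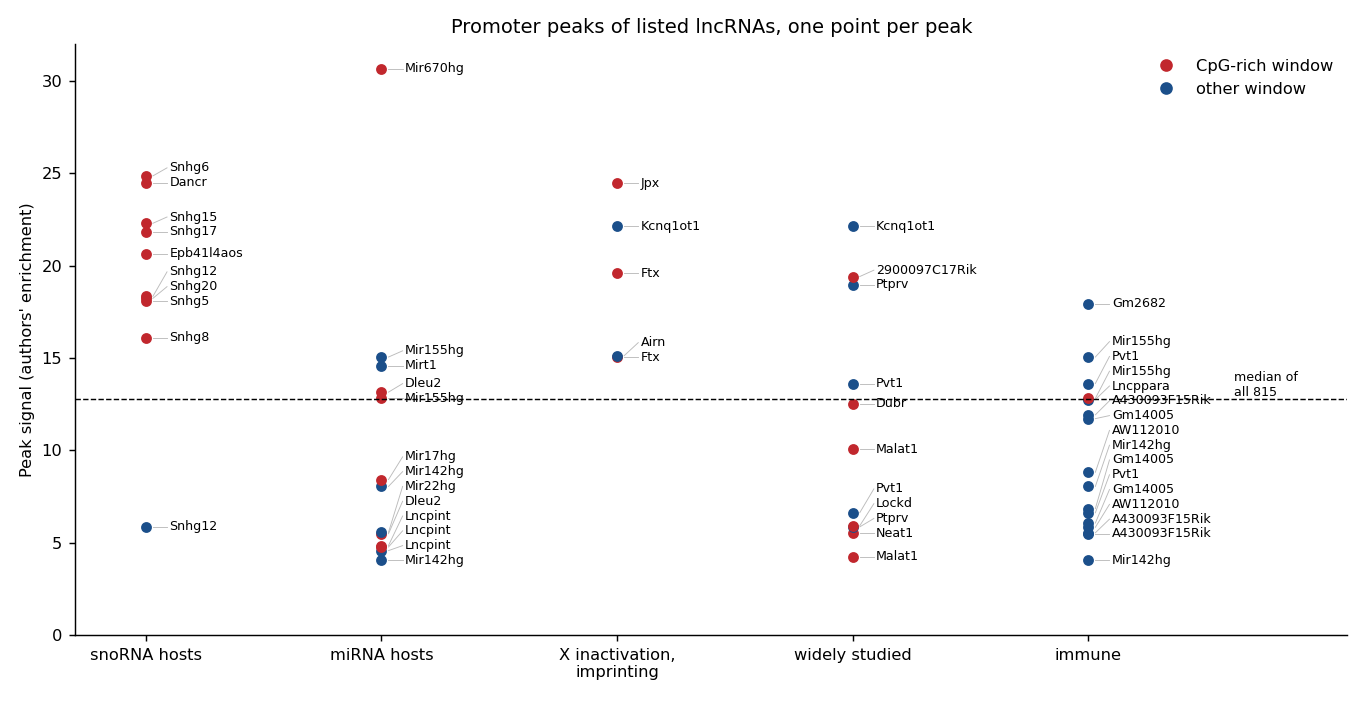
Signal (the authors' enrichment value, vertical axis) of each promoter peak of the listed lncRNAs by group, 1 point per peak, red for CpG-rich windows and blue for the others. The dashed line is the median of all 815 lncRNA promoters, 12.8. Of the 10 peaks of snoRNA hosts, 9 lie above the line, while peaks of the miRNA host and immune groups lie on both sides. Genes in 2 lists appear in both.

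Of 11 immune lncRNAs, 8 were open, beside 9.15% of all lncRNA genes away from coding promoters. Their 16 peaks had a median signal of 8.44, and 1 of the 16 was CpG-rich. Gm14005, known as Morrbid, which in mouse myeloid cells represses the apoptosis gene Bcl2l11, had signals of 11.7 at its TSS, 6.86 at 582 bp downstream and 6.07 at another start. The peak at the TSS held an AP-1 and an ETS match. Gm2682 had 17.9, the highest of the group, and Lncppara had 12.8. AW112010, reported to yield a peptide in mouse macrophages, had 8.82 with a summit 18 bp upstream of its TSS, and 5.85 at a second start, the summits lying 5371 bp apart. The windows of its pair of peaks were 93.9% identical over 131 bp, so their shared TATA and TCF/LEF matches are copies. A430093F15Rik had 11.9, 5.55 and 5.49 at 3 starts near Cd5 and Cd6, which encode related surface receptors that dampen T cell receptor signals. Ptgs2os2, Ttc39aos1 and Mirt2 had none. Flicr could not be assessed because its TSSs lie within 1 kb of a coding TSS. A summit did lie within 1 kb of a Flicr TSS, but also of a coding TSS.

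None of 15 developmental lncRNAs, such as Hotair, Hottip and Fendrr, was open, beside 9.15% of all lncRNA genes away from coding promoters. Hotairm1 is among these 15 as not open. It had a summit within 1 kb of a TSS that also lay within 1 kb of a coding TSS. Beyond the lists, the genes with most peaks were those with 3. They included 1810026B05Rik, next to the chromatin remodeller gene Chd2, with signals of 15.1, 4.21 and 2.48. The gene 4930598N05Rik had 12.4, 11.4 and 3.72, and Gm26812 had 14.6, 6.47 and 5.59. In the 68 genes with more than 1 peak, the highest signal was a median of 1.76 times the lowest.

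lncRNA promoters next to T cell genes were about as frequent as such peaks in general. For 30 of the 815 (3.68%, interval 2.50 to 5.21%) the nearest coding TSS within 100 kb was that of one of 119 listed T cell genes, beside 3.03% of all peaks. They lay at 25 noncoding genes near 23 coding genes, and 1 of the 30 was CpG-rich. Their median signal was low, 7.32 (5.82 to 11.2), beside 8.86 (8.44 to 9.22) for all 1049 peaks near the same genes and 13.2 for all peaks. Their median −log10 p, 108, was close to the 119 of all lncRNA promoters. More than 1 summit was listed in 16 of them, and 6 held an AP-1 site (7.71 to 38.6%), beside 14.97% of all peaks near these genes and 9.6% of all peaks.

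The strongest of these was Gm14009, 62.3 kb from Bcl2l11, the gene of the death inducer BIM, with a signal of 18.2 and an AP-1 match. Gm33524, inside Pebp4 and nearest to the TSS of Egr3, a transcription factor induced by T cell receptor signals, had 17.6. Gm33619, near the progenitor factor gene Myb, had 15.3, and Gm28556, near Ptprc, which encodes the phosphatase CD45, also had 15.3. Gm37170, near Foxo1, a factor that directs homing and survival genes, had 15.2 in a peak 1885 bp wide. Gm4668, near the TGF-β receptor gene Tgfbr2, had 14.3. Gm32255, near Egr2, had 11.7, and A630014C17Rik, antisense within Tcf7, the gene of TCF-1, had 11.4. Bach2os, 2.64 kb from a TSS of Bach2, a repressor of effector differentiation, had 11.2 and the CTCF match printed above. Gm39323 had 10.8 beside Thy1 and Gm33104 had 10.3 near Ifngr1.

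The weaker ones ran from 3.13 to 8.42. Gm47230 had 8.42 near Cxcr5, and 2310001H17Rik had 7.60 and 7.53 near the retention receptor gene Cd69. Gm40608 had 7.11 near Myb, Gm27201 had 6.82 inside Fli1, and Gm26551 had 6.81 inside Tcf7. Gm16008 had 6.60 and 5.82 beside Tnfrsf18, the gene of the regulatory T cell receptor GITR. Junos had 5.52 and 3.13 beside Jun, although the −log10 p of the first was 274. Gm11579 had 5.24 near the costimulatory receptor gene Cd28, Gm37469 had 4.86 inside Cd247, and Gm47680 had 4.80 near Ets1. Gm12000 had 4.15 inside Ikzf1, and Gm20402 had 3.76 inside Foxo1. Nearness in the genome does not show that a lncRNA acts on the neighbour.

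The peaks nearest to the limits of the rule were as follows. Just inside the limit of 1 kb from a noncoding TSS lay Gm49768 at 987 bp with a signal of 13.7, and 2310031A07Rik and Gm2800 at 986 bp with 10.7 and 5.97. Just outside lay Gm26664 at 1008 bp with 3.36, AC091309.4 at 1019 bp with 11.7 and Gm15729 at 1022 bp with 17.7. At the limit from coding genes, Gm15663 was inside at 1008 bp from Tmtc2 with 7.74, Notumos inside at 1009 bp with 7.09 and 1810041H14Rik inside at 1015 bp with 3.99. Gm26580 and G630030J09Rik were outside at 997 bp with 3.55 and 4.54, and 4930579G18Rik outside at 992 bp with 10.4.

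By chromosome, lncRNA promoters made up 1.68% of the peaks of chromosome 18 and 3.72% of those of chromosome 17, where 60 lay, and none of the 13 peaks of the Y chromosome. The ranked list gives a −log10 p for 2 inputs, with medians of 60.7 and 62.8 at lncRNA promoters. The labels and file do not say whether each input was 1 library or part of a shuffled pool, so they are not read as a replicate check. In the longer pseudoreplicated list, the same rule took 1277 peaks, of which 463 did not overlap a peak of the thresholded list and had a median signal of 4.88. They added 325 noncoding genes.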

How the data were processed

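The authors deposited peak lists of ATAC-seq on mm10, called on pooled reads of 2 libraries. In each deposited list the signal column is the authors' enrichment value per summit, and the next column is a −log10 p, as columns of a narrowPeak file run. The ranked list also holds the authors' scores of 2 inputs (a −log10 p each) and of the irreproducible discovery rate (IDR), which measures how well peak ranks agree between calls. Aligner, caller, their versions, any shift for the transposase and the background of the enrichment are not stated in the labels or files used, and the depth is unknown. The signal was used only to describe and rank peaks within a list.

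From the IDR-thresholded list (68653 lines), 34610 distinct intervals were each kept at the summit of highest signal. TSSs of all transcripts came from GENCODE M21 and sequence from GRCm38.p6. Motifs were searched in 200 bp windows, copies with BLAST+ 2.17.0, and shares have exact Clopper-Pearson 95% intervals (scipy 1.17.1), medians binomial ones. The functions were tested on simulated data. For 2000 of 2000 simulated summits the class equalled that of a direct search, and 500 of 500 planted RUNX motifs were found. The other motifs were not planted. Named genes are the 12 members of highest signal, the genes with most peaks, the listed genes and those nearest to listed T cell genes or the limits; any others were picked once their values were known. The members and lists were chosen with earlier results of these data known.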

Additional observations from a re-analysis of the deposited data

How the results depend on the processing

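The count of lncRNA promoters (815), the share of open genes (9.15%), the signal ratio to coding promoters (0.813), the width (682 bp), the CpG ratio (0.399), the share inside coding genes (22.5%) and 4 motif shares were recomputed under 10 other settings, with 79 values in all. Of these, 37 moved and 1 reversed, and the cause was not tested. The other 41 stayed within the interval of the reported value or, for the count of peaks, within 1.5 times of it, at 608 with a limit of 500 bp, 665 with coding TSSs beyond 5 kb, 866 with gene 5′ ends alone and 785 with transcripts of level 1 or 2. With the pseudoreplicated list they were 1277 peaks, 13.0%, 0.676, 520 bp, a CpG ratio of 0.371, ETS 5.87% and KLF/SP 12.5%. Keeping only peaks at or above the list's median −log10 p (115), they were 422 peaks, 5.097%, 0.926, 826.5 bp, 0.462, CTCF 5.45%, ETS 10.2% and KLF/SP 18.5%. Over every summit there were 1649, the signal ratio reversed to 1.10, and width was 852 bp, CTCF 5.58%, ETS 5.64%, KLF/SP 12.1% and RUNX 6.49%. A limit of 500 bp gave 7.33%, 0.846 and 716.5 bp. Coding TSSs beyond 5 kb gave 0.854, 711 bp and 17.6% inside coding genes. Gene 5′ ends alone, for noncoding and coding genes alike, gave 714 bp, 0.454, 35.9% inside coding genes and KLF/SP 18.9%. Interval overlap gave 10.9% open genes. Windows of 100 bp gave ETS 5.15%, KLF/SP 8.71% and RUNX 5.399%, and windows of 400 bp gave KLF/SP 19.02% and RUNX 12.4%. Noncoding transcripts of GENCODE level 1 or 2 moved no value beyond these bounds. No paired analysis was possible because the files hold 1 group and pooled calls, and no library could be left out for the same reason.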
